A study of Homo sapiens with 8 samples.

Results

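The MS4A genes on chromosome 11 encode a family of small membrane proteins, and 6 of them were followed here: MS4A3, MS4A2, MS4A6A, MS4A4A, MS4A7 and MS4A1. They were taken by name from a table of RNA sequencing counts for 33045 gene names. Their choice drew on the ratios of LSD1 inhibitor to vehicle in these libraries, so those ratios are given as descriptions and carry no test. The cells were human acute myeloid leukaemia lines cultured with 0.5 µM of DDP38003, which inhibits LSD1, a histone demethylase (LSD1i), or with vehicle. KASUMI-1, a line with the RUNX1::RUNX1T1 fusion that the labels call sensitive to LSD1i, was sampled after 6 and 72 h. THP-1, a monocytic line labelled resistant, was sampled after 24 and 72 h. There was 1 library for each line, agent and time, 8 in all. The LSD1i and vehicle libraries of a line and time form 1 of 4 pairs, and no pair has a replicate.

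Counted reads per library ranged from 23722972, in vehicle KASUMI-1 cells at 72 h, to 45970766. Markers of the lines were looked at in every library. RUNX1T1, KIT and CD34 together gave 1137 to 1689 CPM (reads scaled to the library size, corrected by TMM factors) in the KASUMI-1 libraries and 3.42 to 15.8 CPM in the THP-1 libraries. Of 5 markers listed for THP-1, HOXA9 stood at 0.919 to 1.51 CPM in KASUMI-1 and at 53.2 to 56.3 CPM in THP-1, and LYZ at 29.6 to 415 CPM in KASUMI-1 and at 527 to 11090 CPM in THP-1. HOXA10 differed less, with 26.9 to 33.0 CPM in KASUMI-1 and 41.6 to 48.1 CPM in THP-1. MEIS1 and FCN1 were nearly absent from both lines, at no more than 0.112 CPM in any library, so these 2 did not mark THP-1 here. Markers of T cells summed to at most 3.61 CPM in any library.

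MS4A proteins cross the membrane several times and keep both ends inside the cell. Several associate with receptors and tune their signalling: MS4A1 is CD20 of B cells, and MS4A2 is the beta chain of the high-affinity IgE receptor of mast cells and basophils. MS4A4A, MS4A6A and MS4A7 are best known from monocytes and macrophages, and MS4A3 from granulocyte and monocyte progenitors. LSD1 is recruited to many myeloid genes by the repressor GFI1, and its inhibitors are known to raise genes of mature myeloid cells.

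The 15 MS4A names of the table span chr11:59580677-60325354 (NCBI36), a stretch of 744.7 kb, and the 6 members lie in its first 414.1 kb. From MS4A3 onwards the order is MS4A3, MS4A2, MS4A6A, MS4A4E, MS4A4A, MS4A6E, MS4A7, MS4A14, MS4A5 and MS4A1. MS4A6A is the 1 member on the reverse strand, as is its neighbour MS4A4E, and the other 5 members are on the forward strand. MS4A7 ends 62 bases before MS4A14 begins, and no exon of a member overlaps an exon of another name.

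Promoter sequences from RefSeq (GRCh38.p14, a later build than the one used for counting) were available for 5 of the 6 members. Each covers 250 bases before to 50 bases after a gene's start. They are shown for MS4A4A, which had the largest ratios among the members, for its near copy MS4A4E, for MS4A7, and for MS4A3, whose ratio differed in sign between the lines. Capitals mark matches, on either strand, to short cores bound by regulators of myeloid genes: AATCAC for GFI1, GAGGAA for PU.1, TGTGGT for RUNX factors and TTGCNNAA for C/EBP factors. The regions are chr11:60280416-60280715 on the forward strand for MS4A4A, chr11:60243088-60243387 on the reverse strand for MS4A4E, chr11:60378282-60378581 on the forward strand for MS4A7 and chr11:60056415-60056714 on the forward strand for MS4A3.
MS4A4A promoter: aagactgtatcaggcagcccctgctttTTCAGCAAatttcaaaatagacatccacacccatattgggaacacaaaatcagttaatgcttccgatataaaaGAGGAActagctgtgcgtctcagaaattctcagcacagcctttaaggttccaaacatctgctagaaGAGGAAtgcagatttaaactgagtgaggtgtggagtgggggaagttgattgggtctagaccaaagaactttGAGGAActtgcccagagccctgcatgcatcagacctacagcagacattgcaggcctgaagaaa
MS4A4E promoter: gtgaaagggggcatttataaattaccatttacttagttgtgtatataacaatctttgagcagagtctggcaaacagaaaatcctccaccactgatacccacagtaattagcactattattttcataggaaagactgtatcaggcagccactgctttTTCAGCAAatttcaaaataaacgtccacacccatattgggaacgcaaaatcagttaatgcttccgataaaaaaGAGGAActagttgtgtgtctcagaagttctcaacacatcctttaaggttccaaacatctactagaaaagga
MS4A7 promoter: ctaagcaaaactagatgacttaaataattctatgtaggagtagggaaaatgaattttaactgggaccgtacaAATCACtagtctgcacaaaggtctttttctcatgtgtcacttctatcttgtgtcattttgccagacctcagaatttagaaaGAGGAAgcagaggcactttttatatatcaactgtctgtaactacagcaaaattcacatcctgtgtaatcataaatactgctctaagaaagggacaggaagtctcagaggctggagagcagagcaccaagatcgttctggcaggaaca
MS4A3 promoter: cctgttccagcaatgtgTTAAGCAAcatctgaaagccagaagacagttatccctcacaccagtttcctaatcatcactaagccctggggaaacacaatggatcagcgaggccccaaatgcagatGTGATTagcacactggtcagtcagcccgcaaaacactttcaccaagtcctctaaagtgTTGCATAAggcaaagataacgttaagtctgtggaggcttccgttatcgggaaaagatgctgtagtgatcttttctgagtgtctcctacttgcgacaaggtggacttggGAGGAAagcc

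The MS4A4A window held GAGGAA at positions -150, -84 and -13 from the start and TTGCNNAA, read on the other strand, at -223. Over 171 aligned bases, 159 (93.0%) were identical between MS4A4A and MS4A4E, and MS4A4E kept 1 GAGGAA match (-21) and 1 TTGCNNAA match (-94). MS4A7 held AATCAC at -178 and GAGGAA at -97. MS4A3 held AATCAC at -126 on the other strand, GAGGAA at 41 and TTGCNNAA at -233 and -68. The MS4A14 window held none of the 4 cores, and TGTGGT was in no member's window. All 5 members with a window held GAGGAA in at least 1 listed promoter (MS4A6A has 4 listed starts). Among all 35116 promoters of this length the shares with a match were 10.2% for AATCAC, 27.9% for GAGGAA, 13.1% for TGTGGT and 10.5% for TTGCNNAA. A match here is a run of letters and not a shown binding site.

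The first comparison asked how the members differ between the lines without drug. All 5 members that could be tested were lower in vehicle KASUMI-1 than in vehicle THP-1 cells, though MS4A2 passed the low count filter only through THP-1. The same vehicle libraries enter the ratios that the choice of members drew on, so these tests are not independent of that choice. MS4A6A averaged 1.14 ± 0.354 CPM in KASUMI-1 and 337 ± 80.0 CPM in THP-1 (SD, n = 2 libraries each), a fitted log2 difference of -8.16 ± 0.30 (SE; adjusted p = 1.74e-08, edgeR's quasi-likelihood test), or 286-fold. Its difference ranked 277 from the most negative of 15456 genes. MS4A3 averaged 13.4 ± 2.97 CPM in KASUMI-1 and 352 ± 69.8 CPM in THP-1, a log2 difference of -4.72 ± 0.24 (edgeR adjusted p = 9.83e-08).

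MS4A7 averaged 13.4 ± 0.364 CPM in KASUMI-1 and 149 ± 28.8 CPM in THP-1 (log2 difference -3.48 ± 0.20, edgeR adjusted p = 2.50e-07). MS4A4A was the nearest to equal of the 4 better expressed members, with 3.76 ± 0.158 CPM in KASUMI-1 and 18.4 ± 1.66 CPM in THP-1 (-2.30 ± 0.22, edgeR adjusted p = 9.80e-06). MS4A2 was scarce in both, at 0.363 ± 0.179 CPM in KASUMI-1 and 1.14 ± 0.0986 CPM in THP-1 (-1.74 ± 0.43, edgeR adjusted p = 0.00566). It had 9 and 11 reads in the vehicle libraries of KASUMI-1 and 51 in each of THP-1. MS4A2 thus entered this fit through the line where it is high, so the low count filter favoured this direction. All 5 calls held with any 1 vehicle library left out. Of all genes tested 30.1% were lower in KASUMI-1 and 26.4% higher, so a lower level alone is common. The times of the vehicle libraries differ between the lines, and the labels do not say that libraries of a line came from separate cultures. Within a line the 2 vehicle libraries were taken at different times, so the SD and the fitted spread include any change with time. These p-values then measure only the spread between these libraries, which may otherwise be technical. In such bulk samples fewer cells with a transcript and less of it per cell cannot be told apart.

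**Figure D1:**
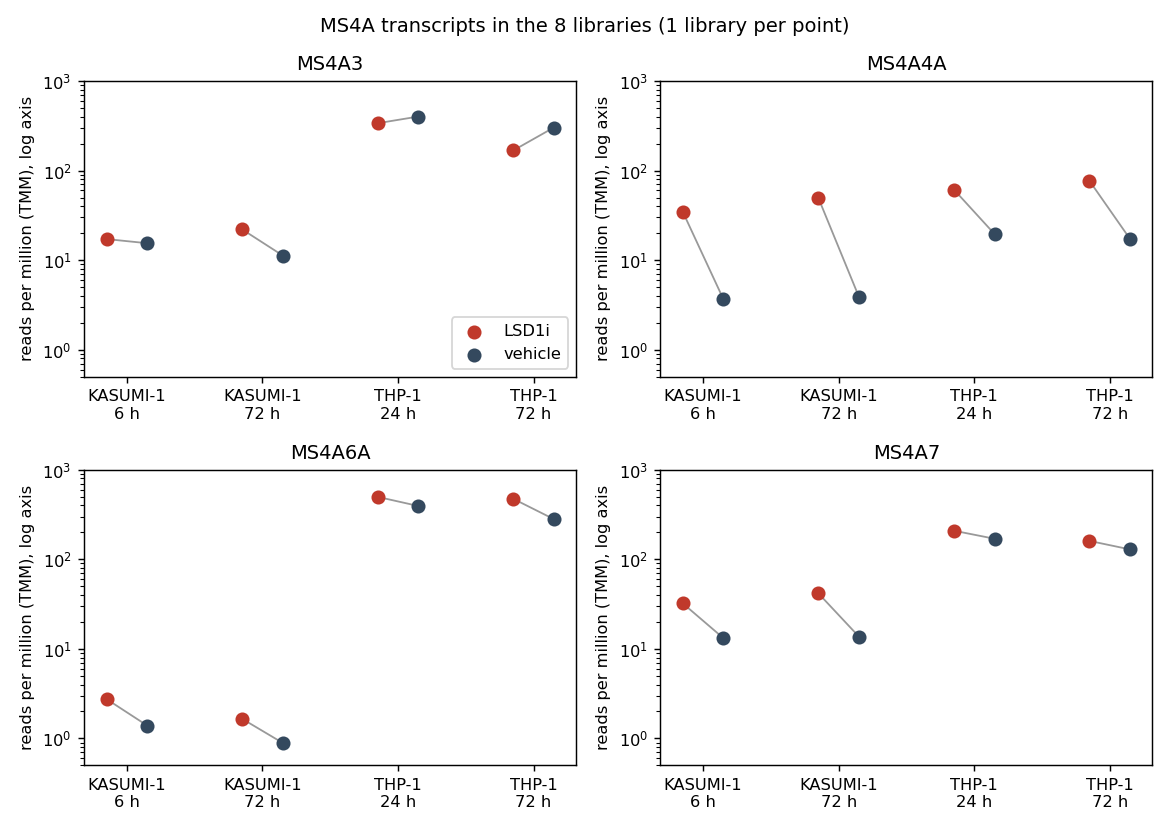
CPM (TMM-scaled, log axis) of MS4A3, MS4A4A, MS4A6A and MS4A7 in each of the 8 libraries, with LSD1i (red) left of vehicle (dark blue) and a grey line joining the libraries of a pair. MS4A4A is higher with LSD1i in every pair, and MS4A3 is lower with LSD1i only in the THP-1 pairs, with 168 against 303 CPM at 72 h.

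The second comparison set LSD1i against vehicle within each pair. MS4A4A, a surface protein of macrophages, had the largest ratio of the members in all 4 pairs. In KASUMI-1 cells it had 1359 reads (34.6 CPM) with LSD1i and 139 reads (3.65 CPM) with vehicle at 6 h. At 72 h the KASUMI-1 libraries held 2033 reads (49.5 CPM) with LSD1i and 87 reads (3.87 CPM) with vehicle. Both LSD1i libraries of this line lay far above both vehicle libraries, which were themselves nearly alike. In THP-1 cells MS4A4A had 2747 reads (61.4 CPM) with LSD1i and 931 reads (19.6 CPM) with vehicle at 24 h. By 72 h the THP-1 libraries held 2724 reads (76.9 CPM) with LSD1i and 725 reads (17.2 CPM) with vehicle. Here too the libraries of the agents did not overlap.

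The MS4A4A ratio was 9.36-fold at 6 h in KASUMI-1, or 3.23 on the log2 scale (95% counting interval 2.99 to 3.51 from an exact binomial, which covers counting error only). At 72 h it was 12.6-fold (log2 3.66, 3.37 to 4.003). In THP-1 it was 3.13-fold at 24 h (log2 1.65, 1.54 to 1.76) and 4.46-fold at 72 h (log2 2.16, 2.04 to 2.28). The later ratio exceeded the earlier by 0.43 log2 units in KASUMI-1 and by 0.51 in THP-1. Between the vehicle libraries of a line the log2 ratio of 72 h to the first time was 0.08 in KASUMI-1 and -0.18 in THP-1. With LSD1i at 72 h the lines came close for this gene, with a level in THP-1 1.55 times that in KASUMI-1, against 4.40 times with vehicle.

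MS4A7, another transcript of macrophages, came next among the members above 2 CPM in KASUMI-1. Its counts there were 1265 reads (32.2 CPM) with LSD1i and 501 reads (13.2 CPM) with vehicle at 6 h, and 1712 reads (41.7 CPM) with LSD1i and 307 reads (13.7 CPM) with vehicle at 72 h. In THP-1 it had 9333 reads (209 CPM) with LSD1i and 8067 reads (170 CPM) with vehicle at 24 h, and 5682 reads (161 CPM) with LSD1i and 5427 reads (129 CPM) with vehicle at 72 h. The agents separated in KASUMI-1, while in THP-1 the LSD1i library of 72 h lay below the vehicle library of 24 h. The ratios were 2.44-fold (log2 1.29, counting interval 1.14 to 1.44) and 3.04-fold (1.61, 1.43 to 1.79) in KASUMI-1. In THP-1 they were 1.23-fold (0.30, 0.26 to 0.34) and 1.25-fold (0.32, 0.26 to 0.37), smaller in size than the log2 ratio of -0.40 between its own vehicle libraries of 72 and 24 h.

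MS4A6A, a transcript of monocytes and macrophages whose locus is linked by genetics to Alzheimer disease, was scarce in KASUMI-1 and abundant in THP-1. KASUMI-1 held 108 reads (2.75 CPM) with LSD1i and 53 reads (1.39 CPM) with vehicle at 6 h, and 68 reads (1.66 CPM) with LSD1i and 20 reads (0.890 CPM) with vehicle at 72 h. THP-1 held 22263 reads (498 CPM) with LSD1i and 18729 reads (394 CPM) with vehicle at 24 h, and 16776 reads (474 CPM) with LSD1i and 11812 reads (281 CPM) with vehicle at 72 h. In both lines each LSD1i library was above each vehicle library. The log2 ratios were 0.96 (counting interval 0.49 to 1.48) and 0.86 (0.16 to 1.69) in KASUMI-1, and 0.34 (0.31 to 0.37) and 0.76 (0.72 to 0.79) in THP-1. At 72 h the distance between the lines hardly moved, with THP-1 278-fold higher with LSD1i and 298-fold higher with vehicle.

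MS4A3, which marks granulocyte and monocyte progenitors and binds the cell cycle phosphatase CDKN3, was the member whose ratio had opposite signs in the lines. KASUMI-1 held 676 reads (17.2 CPM) with LSD1i and 589 reads (15.5 CPM) with vehicle at 6 h, and 906 reads (22.1 CPM) with LSD1i and 253 reads (11.3 CPM) with vehicle at 72 h. THP-1 held 15126 reads (338 CPM) with LSD1i and 19096 reads (401 CPM) with vehicle at 24 h, and 5938 reads (168 CPM) with LSD1i and 12746 reads (303 CPM) with vehicle at 72 h. With LSD1i it was the higher of the pair at both times in KASUMI-1 and the lower at both times in THP-1.

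The MS4A3 log2 ratio was 0.15 at 6 h in KASUMI-1 (counting interval -0.01 to 0.32, which includes equality) and 0.97 (0.77 to 1.18) at 72 h. In THP-1 it was -0.25 (-0.28 to -0.22) at 24 h and -0.85 (-0.90 to -0.81) at 72 h. Both lines thus moved away from equality with time, in opposite directions, by 0.81 and -0.60 log2 units between their times. Vehicle alone gave a log2 ratio of 72 h to the first time of -0.46 in KASUMI-1 and -0.41 in THP-1. Each exceeds in size the LSD1i ratio of its line at the first time, 0.15 and -0.25. The lower vehicle level at 72 h thus enters the larger KASUMI-1 ratio at that time. At 72 h MS4A3 was 7.59-fold higher in THP-1 than in KASUMI-1 with LSD1i and 26.8-fold higher with vehicle. The difference between the lines was not tested, because the members were chosen on this contrast.

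MS4A2 and MS4A1, the members of mast cells and B cells, were scarce or absent. MS4A2 had 21 reads with LSD1i and 9 with vehicle at 6 h in KASUMI-1, and 13 with LSD1i and 11 with vehicle at 72 h. In THP-1 it had 57 reads with LSD1i and 51 with vehicle at 24 h, and 37 with LSD1i and 51 with vehicle at 72 h. All 4 counting intervals of its ratio included equality. MS4A1 had 1 read in the LSD1i library of THP-1 at 24 h, 1 read in the vehicle library of THP-1 at 72 h, and 0 in the other 6. A count of 0 allows up to 3 reads, or 0.0631 to 0.134 CPM by library, so no difference in MS4A1 was detectable at this depth.

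**Figure D2:**
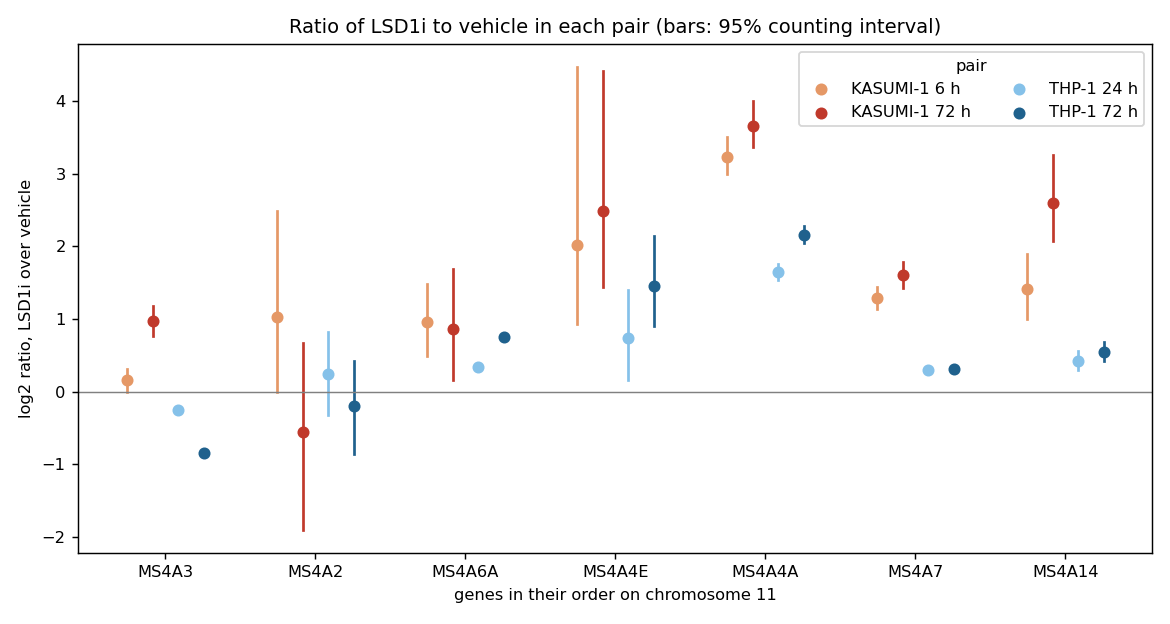
Log2 ratio of LSD1i to vehicle for 5 members and for MS4A4E and MS4A14, drawn from left to right in their order on the chromosome, with a point for each pair and a bar for its 95% counting interval. MS4A4A has the largest ratio of the members in every pair, and the MS4A3 points lie above 0 for KASUMI-1 and below it for THP-1.

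Calls in a pair were made among genes that passed the low count filter and had a mean of at least 2 CPM there. A gene was called when it differed at least 2-fold and its counting interval excluded equality. In KASUMI-1 MS4A4A and MS4A7 passed on the higher side, as 2 of 4 members at that level at 6 h and 2 of 3 at 72 h. Of all genes at that level 0.785% passed higher at 6 h and 3.37% at 72 h. In THP-1 MS4A4A alone passed, as 1 of 4 members at both times, where 2.77% of genes passed higher at 24 h and 3.25% at 72 h. The 2-fold count on the lower side was 0 members in each pair, against 0.0274% and 1.03% of genes in KASUMI-1 and 0.418% and 1.35% in THP-1. Because the members were picked on these ratios, their share says nothing beyond the choice.

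Levels per kilobase of exon (RPKM) allow the members to be compared with each other. With vehicle, KASUMI-1 held most MS4A3 (9.35 RPKM at 6 h and 6.81 at 72 h), then MS4A7 (4.37 and 4.55), MS4A4A (2.13 and 2.26), MS4A6A (0.906 and 0.580) and MS4A2 (0.0634 and 0.131). With LSD1i MS4A4A led at both times, with 20.2 RPKM at 6 h and 28.9 RPKM at 72 h. MS4A7 (10.7 and 13.9 RPKM) and MS4A3 (10.4 and 13.3 RPKM) followed at nearly equal levels. MS4A4A made up 46.7% and 50.5% of the members' summed RPKM with LSD1i, against 12.7% and 15.8% with vehicle.

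In THP-1 the order was led by MS4A6A and MS4A3. With LSD1i MS4A6A stood at 324 RPKM at 24 h and 309 at 72 h, above MS4A3 at 204 and 101. With vehicle they were close, MS4A6A at 257 and 182.8 RPKM and MS4A3 at 243 and 183.0 RPKM, and their order differed between the times. MS4A7 was the third throughout, at 69.4 and 53.4 RPKM with LSD1i and 56.4 and 42.9 with vehicle. MS4A4A was the fourth, at 35.9 and 44.9 RPKM with LSD1i and 11.4 and 10.1 with vehicle, or 5.66% and 8.83% of the members' sum against 2.02% and 2.40%.

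**Figure D3:**
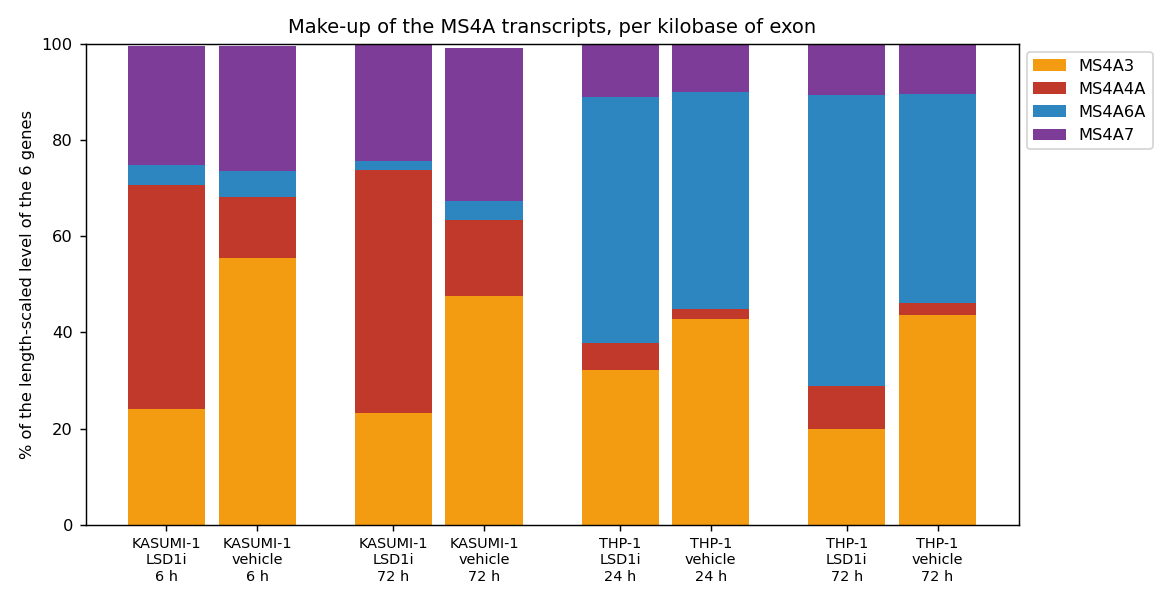
Share of each gene in the summed RPKM of the 6 members, one stacked bar per library, with LSD1i left of vehicle in each pair (MS4A2 and MS4A1 are too scarce to draw). The MS4A4A part is 46.7% and 50.5% in the LSD1i libraries of KASUMI-1, against 12.7% and 15.8% in its vehicle libraries.

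The relatives of the members were looked at next, as a list of 12 MS4A and TMEM176 genes of which 11 were in the table and 5 (MS4A5, MS4A8, which the table calls MS4A8B, MS4A12, MS4A13 and MS4A15) had no read in any library. MS4A6E had 9 reads in all. Of the 5 relatives tested, 2 rose in KASUMI-1 and 3 in THP-1, where 7.02% and 6.51% of all genes rose, and 0 fell in either line by edgeR, at an unadjusted p under 0.05 or by DESeq2, where 5.09% and 2.85% of all genes fell. TMEM176A and TMEM176B had at most 3 reads in a KASUMI-1 library and were tested through their THP-1 reads, so the KASUMI-1 count rests on the 3 relatives with a mean of at least 10 reads in that line. The 3 that rose in THP-1 are low in counts, and the number became 1 without the THP-1 pair of 24 h, 0 without that of 72 h and 0 by DESeq2. In KASUMI-1 1 rose by DESeq2.

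MS4A4E, the near copy of MS4A4A, had 23 reads with LSD1i and 4 with vehicle at 6 h in KASUMI-1, and 61 with LSD1i and 5 with vehicle at 72 h. In THP-1 it had 61 reads with LSD1i and 38 with vehicle at 24 h, and 79 with LSD1i and 33 with vehicle at 72 h. Each LSD1i library lay above each vehicle library of its line. The fitted change was 2.60 ± 0.48 in KASUMI-1 (edgeR adjusted p = 0.00250) and 1.14 ± 0.31 in THP-1 (edgeR adjusted p = 0.0220). The THP-1 call was lost without the pair of 24 h (1.48, edgeR adjusted p = 0.112) and without that of 72 h (0.76, edgeR adjusted p = 0.743), and the KASUMI-1 call without the term for pairs (2.75, edgeR adjusted p = 0.0874). Reads that fit both MS4A4A and MS4A4E were left out in counting, so both may be undercounted. MS4A4E had far fewer reads than MS4A4A in every library, with 61 against 2033 with LSD1i at 72 h in KASUMI-1. Whether some MS4A4E reads came from MS4A4A was not tested, so its changes may not be separate from those of MS4A4A.

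MS4A14, the next gene after MS4A7, had 165 reads (4.20 CPM) with LSD1i and 59 (1.55 CPM) with vehicle at 6 h in KASUMI-1, and 319 (7.77 CPM) with LSD1i and 28 (1.25 CPM) with vehicle at 72 h. In THP-1 it had 1078 reads (24.1 CPM) with LSD1i and 852 (17.9 CPM) with vehicle at 24 h, and 1068 (30.2 CPM) with LSD1i and 870 (20.7 CPM) with vehicle at 72 h. The LSD1i libraries were the higher in both lines, by more in KASUMI-1. MS4A14 rose by 1.98 ± 0.24 in KASUMI-1 (edgeR adjusted p = 6.95e-05), and stood at 2.64 without the pair of 6 h and 1.43 without that of 72 h, with the call kept. Its fitted change in THP-1 was 0.49 ± 0.18 (edgeR adjusted p = 0.104), which passed when either KASUMI-1 pair was left out (0.49, edgeR adjusted p = 0.00727 without 6 h and 0.00736 without 72 h).

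The MS4A14 response was larger in KASUMI-1 than in THP-1 by 1.49 ± 0.30 log2 units (edgeR adjusted p = 0.00757), where 2.62% of genes passed in that direction, 3.07% in the other and 5.69% in either. This call was lost without the KASUMI-1 pair of 72 h (0.95, edgeR adjusted p = 0.0551), without the THP-1 pair of 24 h (1.44, 0.0983) or of 72 h (1.55, 0.0755) and without the term for pairs (1.59, 0.195). Without the KASUMI-1 pair of 6 h it was 2.16. In vehicle cells MS4A14, like the members tested, was lower in KASUMI-1 than in THP-1 (log2 difference -3.77 ± 0.25, edgeR adjusted p = 6.79e-07). MS4A4E was lower there too (-2.37 ± 0.49, edgeR adjusted p = 0.00212). With 4 and 5 reads in the vehicle KASUMI-1 libraries, MS4A4E passed the low count filter only through THP-1, so the filter favoured this direction.

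TMEM176B and TMEM176A, relatives on another chromosome, had 0 to 3 reads in each KASUMI-1 library. TMEM176B had 79 and 107 reads with LSD1i and 39 and 21 with vehicle in THP-1 at 24 and 72 h (fitted change 1.80 ± 0.37, edgeR adjusted p = 0.00308, and 1.09 with adjusted p = 0.546 without the pair of 72 h). It stood at 2.57 without the pair of 24 h. TMEM176A had 32 and 26 reads with LSD1i and 7 and 8 with vehicle (2.09 ± 0.47, edgeR adjusted p = 0.00692, lost without either THP-1 pair at adjusted p = 0.263 and 0.207). MS4A10, at the far end of the cluster, had at most 66 reads in a library, and its fitted changes of 0.22 in KASUMI-1 and -0.36 in THP-1 did not pass (edgeR adjusted p = 0.762 and 0.728).

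Genes around the cluster were examined in the same way. Within 500 kb of the MS4A genes lie 29 other names, of which 17 were tested. With a mean of at least 10 reads over the libraries of a line there were 13 in KASUMI-1 and 14 in THP-1. In KASUMI-1 1 of these rose and 2 fell, where 7.02% and 5.09% of all genes did, so the higher side is near the share of all genes. In THP-1 5 rose and 0 fell, where 6.51% and 2.85% of all genes did. Also 0 fell in THP-1 at an unadjusted p under 0.05 and by DESeq2. STX3, a syntaxin of membrane fusion, had 85.9 and 95.6 CPM with LSD1i and 69.4 and 49.9 CPM with vehicle in KASUMI-1 at 6 and 72 h. In THP-1 it had 79.2 and 62.9 CPM with LSD1i and 39.1 and 30.2 CPM with vehicle at 24 and 72 h. The fitted changes were 0.62 ± 0.14 in KASUMI-1 (edgeR adjusted p = 0.00998) and 1.04 ± 0.14 in THP-1 (edgeR adjusted p = 6.88e-05). The KASUMI-1 call was lost without the pair of 72 h (0.30) and without the term for pairs (0.60, edgeR adjusted p = 0.188). Without that term 0 names of this set rose and 0 fell in KASUMI-1.

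SLC15A3, a transporter of histidine and small peptides, rose in THP-1 by 1.89 ± 0.24 (edgeR adjusted p = 3.23e-05; 1.25 without the pair of 24 h and 2.49 without that of 72 h). Its exons overlap TMEM132A, and reads there cannot be assigned without strand. The KASUMI-1 counts of this set became 0 higher and 1 lower without the pair of 72 h, and 1 lower without the THP-1 pair of 24 h. The 5 that rose in THP-1 became 2 without either THP-1 pair and 3 by DESeq2. In the THP-1 pair of 24 h SLC15A3 (log2 ratio 2.49) and CD5 (2.28), a T cell receptor regulator with 86 reads over all libraries, lay above MS4A4A (1.65), whereas in the other 3 pairs no name of this set did. No name between MS4A3 and MS4A10 other than MS4A genes was tested.

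**Figure D4:**
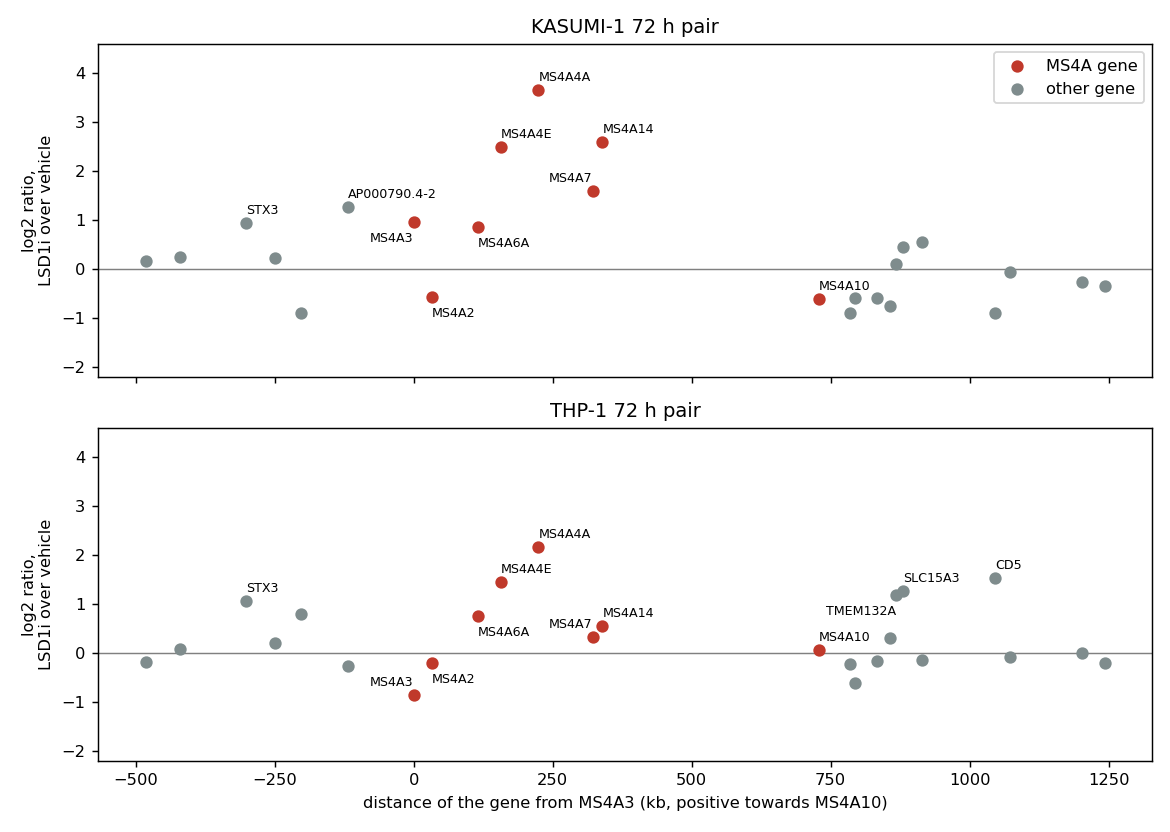
Log2 ratio of LSD1i to vehicle at 72 h in KASUMI-1 (top) and THP-1 (bottom) against distance from the start of MS4A3, for 8 MS4A genes (red) and 17 other tested names within 500 kb (grey). The highest point is MS4A4A in both panels, at 3.66 in KASUMI-1 and 2.16 in THP-1. In the THP-1 pair of 24 h, which is not drawn, SLC15A3 and CD5 were above it.

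Genes of the cells in which the members are known were counted from lists chosen with earlier results known. Of 21 macrophage genes 16 were tested, and 1 of them, the growth factor receptor CSF1R, rose in both lines. It had 11.1 and 8.82 CPM with LSD1i and 5.80 and 3.87 CPM with vehicle in KASUMI-1, and 76.5 and 75.5 CPM with LSD1i and 30.7 and 39.1 CPM with vehicle in THP-1. The changes were 1.04 ± 0.16 in KASUMI-1 (edgeR adjusted p = 7.59e-04; adjusted p = 0.0840 without the term for pairs) and 1.14 ± 0.14 in THP-1 (edgeR adjusted p = 1.99e-05). In KASUMI-1 CSF1R was the 1 macrophage gene that rose and TREM2, a lipid receptor of macrophages, the 1 that fell, where 7.02% of all genes rose and 5.09% fell. Of the 16 genes, 7 had at most 4 reads in any KASUMI-1 library, so these counts are 1 and 1 of 9.

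In THP-1 6 of 16 macrophage genes rose and 2 fell, where 6.51% and 2.85% of all genes did. Their median log2 change was 0.53, beside -0.01 over all genes, and 3 rose by DESeq2. The lipopolysaccharide co-receptor CD14 rose by 2.40 ± 0.30 (edgeR adjusted p = 3.35e-05). TREM2 fell by 0.77 in THP-1, with 90.7 and 37.6 CPM with LSD1i and 122 and 81.9 CPM with vehicle (edgeR adjusted p = 0.00400; -0.44, adjusted p = 0.510 without the pair of 72 h). In KASUMI-1 TREM2 stood at -1.03 ± 0.25 (edgeR adjusted p = 0.0142; -1.73 without the pair of 6 h). Without the term for pairs TREM2 passed in neither line, at -1.04 in KASUMI-1 and -0.66 in THP-1 (edgeR adjusted p = 0.529 and 0.807). Of the 2 that fell in THP-1, 1 passed without the pair of 24 h and 0 without that of 72 h. The summed level of the list was 64.8 and 69.9 CPM with LSD1i and 56.9 and 45.0 CPM with vehicle in KASUMI-1, and 396 and 294 CPM with LSD1i and 345 and 277 CPM with vehicle in THP-1. The part of these genes in the MS4A4A ratios was not tested.

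Beside MS4A3, 10 of 13 genes of granulocyte progenitors and granules were tested. In KASUMI-1 4 of the 9 with a mean of at least 10 reads there fell and 0 rose, where 5.09% of all genes fell and 7.02% rose, with a median log2 change of -0.51 beside 0.02 over all genes. In THP-1 2 of 10 fell and 1 rose, where 2.85% of all genes fell and 6.51% rose, with a median of -0.26 beside -0.01. In KASUMI-1 0 rose at an unadjusted p under 0.05 or by DESeq2. The protease CTSG had 476 and 471 CPM with LSD1i and 995 and 1325 CPM with vehicle in THP-1 and fell by 1.28 (SE 0.17, edgeR adjusted p = 3.35e-05). MS4A3 and CTSG thus were both lower with LSD1i in THP-1, whereas in KASUMI-1 MS4A3 was higher and CTSG stood at -0.55 (edgeR adjusted p = 0.0379; -0.23, adjusted p = 0.675 without the pair of 72 h). The KASUMI-1 count became 0 without the pair of 72 h and 1 without either THP-1 pair, and the 2 that fell in THP-1 became 1 without either THP-1 pair. The riser in THP-1 was lost without the pair of 72 h. Of CDKN3 and its cell cycle partners CDK2, CCNA2 and CCNE1, CCNE1 alone passed, falling in KASUMI-1, where 5.09% of all genes fell. CCNE1 stood at -0.47 ± 0.13 there (edgeR adjusted p = 0.0282). Without either KASUMI-1 pair it stood at -0.47 too, with the call lost.

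Beside MS4A2, FCER1G, the gamma chain shared by the IgE receptor and other Fc receptors, rose in THP-1. It had 697 and 667 CPM with LSD1i and 213 and 179 CPM with vehicle in THP-1, and 4.63 and 4.09 CPM with LSD1i and 4.41 and 3.12 CPM with vehicle in KASUMI-1. The fitted change was 1.80 ± 0.13 in THP-1 (edgeR adjusted p = 3.49e-08) and 0.21 ± 0.17 in KASUMI-1 (edgeR adjusted p = 0.475). FCER1A, the chain that binds IgE, had 16 reads over all libraries, and SYK and LYN, the kinases of the complex, lay between 37.5 and 467 CPM. Of 3 genes of the complex tested 0 passed in KASUMI-1 and 2 rose in THP-1, or 1 without either THP-1 pair. At an unadjusted p under 0.05 and by DESeq2 the number in KASUMI-1 was 0 too. Of all genes 7.02% rose and 5.09% fell in KASUMI-1, and 6.51% rose and 2.85% fell in THP-1. None of 6 mast cell and basophil genes passed in KASUMI-1 by edgeR, at an unadjusted p under 0.05 or by DESeq2 (2 rose without the pair of 6 h). In THP-1 CPA3, TPSAB1, TPSB2 and IL1RL1 had at most 2 reads in a library, so no change in them was detectable. SIGLEC6 and GATA2, which had more, stood at 0.62 ± 0.35 and 0.31 ± 0.19 there and did not pass (edgeR adjusted p = 0.366 and 0.398; 1 of them rose without either KASUMI-1 pair). The list summed to 13.7 to 61.3 CPM.

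Beside MS4A1, 7 of 12 B cell genes were tested, of which 6 in KASUMI-1 and 5 in THP-1 had a mean of at least 10 reads in the line. In KASUMI-1 1 fell, where 5.09% of all genes did. In THP-1 1 rose and 1 fell, where 6.51% and 2.85% of all genes did. None of these calls held for every pair left out except that of CD79B in KASUMI-1 (-0.70 ± 0.13, edgeR adjusted p = 0.00327, and 0.236 without the term for pairs). CD79B, a chain of the B cell receptor complex, was also the gene that rose in THP-1 (0.58 ± 0.18, edgeR adjusted p = 0.0476, and 0.0972 by DESeq2). In THP-1 it had 2.64 and 3.73 CPM with LSD1i and 1.70 and 2.59 CPM with vehicle. Its response in KASUMI-1 minus that in THP-1 was -1.27 ± 0.22 (edgeR adjusted p = 0.00294, and 0.287 without the term for pairs). This call on the difference was also lost without the THP-1 pair of 24 h (-1.21). CD79B had 29.9 and 42.8 CPM with LSD1i and 47.9 and 70.1 CPM with vehicle in KASUMI-1. Without the pair of 6 h 2 B cell genes fell there. The list summed to 27.9 to 82.9 CPM over the libraries, with the tyrosine kinase BLK at 0 reads in all.

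The genes most like each member were sought by Pearson's r of log2 CPM over the 8 libraries among 11015 other genes (11016 for MS4A2, which lies below the CPM minimum itself). For MS4A4A they were KCTD12 (r = 0.990), the tumour suppressor RB1 (0.989) and EVI2B (0.980). KCTD12 had log2 ratios of 3.71 and 4.07 in KASUMI-1 and 1.41 and 2.06 in THP-1. For MS4A3 the 3 were GLIS2 (0.999), GBA2 (0.998) and ZNF670 (0.997), for MS4A6A CCR1, TCF4 and UEVLD (each 0.999), and for MS4A7 NFIL3 (0.992), SKAP2 (0.992) and CDC40 (0.991). For MS4A2 they were TMEM105 (0.979), GALC (0.978) and PCDHGA12 (0.973). Among the members r was lowest for the pairs with MS4A4A, at 0.494 to 0.729, and 0.891 to 0.979 for the others. These values are descriptions over 8 libraries that share the difference between the lines.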

How the data were processed

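Per the labels, 8 RNA samples (500 ng) were made into TruSeq libraries and sequenced. The deposited values are raw counts, which the authors gave as 1 table of gene names. Per the file headers, featureCounts 1.5.2 counted exons of Ensembl release 54 on NCBI build 36, with no strand option, and left out reads that map to several places. Alignment with TopHat2 2.0.10 to hg18 and quality control with FastQC 0.10.0 are credited to the submitters' processing notes. Read filters are not stated in those sources. Totals of 23722972 to 45970766 reads set the counting error, which the intervals and limits cover alone.

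Groups came from the labels. edgeR 4.0.16 (R 4.3.3) fitted 16060 genes with filterByExpr (minimum count 10), TMM scaling, 4 pair terms and an LSD1i coefficient per line, leaving 2 residual degrees of freedom, so the times of a line stand in for replicates. A second fit used the 4 vehicle libraries (15456 genes, a line term, 2 residual degrees of freedom), where the times of a line again stand in for replicates. The quasi-likelihood test was used with Benjamini-Hochberg adjustment at 0.05. Pair ratios used a prior count of 2 and exact conditional binomial 95% intervals. RPKM used exon lengths from the table. Pairing comes from line and time, since no replicate numbers are given.

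Alternatives were RLE scaling, total reads, DESeq2 1.42.0, no low count filter, a prior count of 0.5, no pair term and each pair or vehicle library left out. The members and lists were chosen with earlier results of these data known. Named genes were the members, genes of the lists led by those that passed, names within 500 kb when they passed, and the 3 genes most like each member, among genes with a mean of at least 2 CPM. STX3, SLC15A3, CD5, CD14, CSF1R and TREM2 stand for their lists after their values were seen.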

Additional observations from a re-analysis of the deposited data

Results flagged for a closer look

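MS4A3 had a log2 ratio of LSD1i to vehicle of -0.85 in the THP-1 pair of 72 h and of -0.25 in that of 24 h, opposite in sign to both KASUMI-1 pairs (0.15 and 0.97). The difference between the lines was not tested, and the 6 h value of KASUMI-1 has a counting interval that includes 0.

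For some genes other than the members, the LSD1i response differed between KASUMI-1 and THP-1 by edgeR's quasi-likelihood test of the difference itself. Of all genes 5.69% passed this test. Listed genes that passed were KIT (1.91 ± 0.33, adjusted p = 0.00262), CD79B (-1.27 ± 0.22, 0.00294), CEBPE (-1.17 ± 0.23, 0.00747) and those that follow. KIT lost the call by DESeq2 (adjusted p = 0.104) and without the term for pairs (1.96, edgeR adjusted p = 0.157). The KIT call was also lost without the THP-1 pair of 72 h (1.14). CD79B and CEBPE lost theirs without the term for pairs (edgeR adjusted p = 0.287 and 0.159). Both also lost it without the THP-1 pair of 24 h (-1.21 and -1.20), and CEBPE without that of 72 h too (-1.13). MS4A14 differed by 1.49 ± 0.30 (adjusted p = 0.00757; 1.59, adjusted p = 0.195 without the term for pairs), with both lines higher with LSD1i. The call was also lost without the KASUMI-1 pair of 72 h (0.95) and without the THP-1 pair of 24 h (1.44) or 72 h (1.55). The rise of MS4A14 in THP-1 alone did not pass (0.49, edgeR adjusted p = 0.104). FCER1G differed by -1.59 ± 0.22 (adjusted p = 3.09e-04; -1.61, adjusted p = 0.0564 without the term for pairs). TMEM109, a membrane protein gene beside the cluster, differed by -1.04 ± 0.21 (adjusted p = 0.00665). Its call was lost without the THP-1 pair of 24 h (-0.79) and without the term for pairs (-1.05, edgeR adjusted p = 0.182). TMEM109 stood at -0.49 in KASUMI-1 and 0.55 in THP-1. CCDC86, the next gene after MS4A10 in the table, differed by -0.90 ± 0.22 (adjusted p = 0.0240). That call too was lost without the THP-1 pair of 24 h (-0.53) and without the term for pairs (-0.96, edgeR adjusted p = 0.360). The exons of CCDC86 overlap those of GPR44, so reads there cannot be assigned without strand.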

How the results depend on the processing

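All 5 members tested between the vehicle libraries kept their direction and their call under DESeq2, RLE scaling, no low count filter and each vehicle library left out. The number of genes called in KASUMI-1 was 1945 (58.0% of them higher), and 306 to 2741 with a pair left out. It was 100 with no replicate block (96.0% higher), and 1610 by DESeq2, of which 44.7% were higher. In THP-1 it was 1503, with 386 to 2211 when a pair was left out, 994 by DESeq2 and 454 with no replicate block. The difference between the lines gave 914 calls (46.1% higher), 166 to 1705 with a pair left out, 868 by DESeq2 (34.8% higher) and 22 with no replicate block. The cause was not tested. Scaling by total reads moved the median log2 ratio of a pair by 0.11 in KASUMI-1 at 6 h and by -0.13 in THP-1 at 72 h, and took MS4A3 to -0.98 and MS4A7 to 0.19 in THP-1 at 72 h. No member's ratio changed sign under another scaling or prior count. Counts under about 20 reads, as for MS4A2 in KASUMI-1, leave wide intervals.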
